A study of Mus musculus with 32 samples.

Results

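Oxidative phosphorylation subunit genes were examined in embryonic mouse kidneys that carried a tumor mutation of ENL, a reader of acetylated histones. The genes were taken by symbol alone, as every gene whose name begins with Nduf, Uqcr, Cox4 to Cox8 or Atp5, the 4 Sdh genes and the protein genes of the mitochondrial genome, with symbols that end in -ps left out and presence in all 4 count tables required. This gave 111 genes of the 54417 shared by the tables. Of these, 90 were nuclear subunit genes, 8 were Nduf assembly factors that do not stay in the finished enzyme, and 13 were mitochondrial. The nuclear subunits fell into complex I (39 genes), complex II (4), complex III (8), complex IV (21, with Ndufa4 and Ndufa4l2 counted here) and complex V (18). Nuclear and mitochondrial genes are described apart throughout.

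Complexes I to IV of the inner mitochondrial membrane pass electrons from NADH and succinate to oxygen. Complexes I, III and IV also pump protons, and complex V, the ATP synthase, uses the proton gradient to make ATP. Complexes I, III, IV and V are built from subunits of both genomes, whereas all subunits of complex II, the succinate dehydrogenase, are nuclear. In the kidney the proximal tubule and the thick ascending limb are rich in mitochondria, while nephron progenitors are known to rely strongly on glycolysis. Some subunits have tissue or oxygen-dependent isoforms, such as Cox4i2 and Ndufa4l2, which are both induced by hypoxia and found in pericytes.

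The 32 libraries came from kidneys or sorted kidney cells of C57BL/6J embryos in 4 settings. Whole kidneys at E18.5 with the Six2 driver, which acts in nephron progenitors and their descendants, were Six2-TGCtg/+;Enl+/+ (WT, 2 libraries), Six2-TGCtg/+;EnlT1/+ (T1, 2) and Six2-TGCtg/+;EnlT3/+ (T3, 2), where T1 is an in-frame insertion and T3 a small in-frame deletion in the YEATS domain. Cells sorted for the tdT reporter of that lineage were WT and T1 at E14.5 and at E18.5, with 3 libraries in each group. Whole kidneys with the Foxd1 driver, which acts in the renal stroma, were Foxd1GC/+;Enl+/+ (WT, 3) and Foxd1GC/+;EnlT1/+ (T1, 3) at E18.5, and cells sorted for the reporter of the stromal lineage at E18.5 comprised 4 WT and 4 T1 libraries. Each mutation was heterozygous and was switched on by Cre in the lineage named, so whole kidneys mixed mutant and unrecombined cells. All Six2 animals, controls included, carried the Six2-TGC transgene, a BAC with ectopic Six3 expression, and all Foxd1 animals had lost 1 Foxd1 copy to the driver. Embryos of both sexes were used, and the labels do not tie libraries to a sex or litter, so the p-values measure the spread between the libraries only.

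Total counts were 106005614 to 157266455 in Six2 whole kidneys, 67137194 to 79343015 in Foxd1 whole kidneys, 115625561 to 137888792 in sorted Six2 cells at E14.5, 76510702 to 92026288 at E18.5, and only 2557443 to 3508381 in sorted Foxd1 cells, where 3 counts correspond to 0.848 to 1.20 CPM. Mllt1, which encodes ENL, differed by -0.33 to -0.02 in log2 between mutants and WT, and since both alleles are in frame its level does not check the labels. By edgeR's quasi-likelihood test it was lower in Six2 T3 whole kidneys (-0.33, adjusted p = 0.024) and Foxd1 T1 whole kidneys (-0.27, adjusted p = 0.0010). It was also lower in sorted Six2 T1 cells at E14.5 (-0.14, adjusted p = 0.044), and it did not pass in the other genotype comparisons. The summed level of 12 stromal markers was 7504 to 10270 CPM in sorted Foxd1 cells and 593 to 2212 CPM in sorted Six2 cells, and that of 10 nephron progenitor markers was 365 to 448 CPM in the former and 1027 to 2650 CPM in the latter. In what follows, CPM is the count per 1000000 after TMM scaling, "rose" and "fell" mean a Benjamini-Hochberg adjusted p under 0.05 in edgeR's quasi-likelihood test over all genes that passed the low-count filter, and the study's fold threshold of 1.5 is given beside the counts. In bulk samples, fewer cells of a type and less RNA per cell cannot be told apart.

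Levels were compared between genes per kilobase of exon (RPKM). In Six2 WT kidneys the highest nuclear gene of each complex was Ndufc2 at 109 ± 7.5 RPKM (SD, n = 2) in complex I, Sdhd at 151 ± 7.5 in complex II, Uqcr10 at 162 ± 6.7 in complex III, Cox6b1 at 284 ± 20.1 in complex IV, and Atp5a1, the alpha chain of the catalytic head, at 452 ± 29.9 in complex V. Uqcr10 did not stand apart from the next gene, Uqcrh, at 162 RPKM, nor Ndufc2 from Ndufa8 at 105. The mitochondrial mt-Co1 was far higher, at 7334 ± 4632 RPKM, with a spread set by the 2 WT libraries, which differed in their mitochondrial share. In sorted Six2 WT cells the leading genes at E14.5 were Ndufa2 (243 ± 15.9 RPKM, n = 3), Sdhd (196 ± 3.5), Uqcr10 (262 ± 24.5), Cox6a1 (431 ± 19) and Atp5b (446 ± 11.8), with Atp5a1 next in complex V (433). In sorted Foxd1 WT cells they were Ndufa1 (1054 ± 31.3 RPKM, n = 4), Sdhd (191 ± 6.7), Uqcr10 (853 ± 50.1), Cox6b1 (1675 ± 30.2) and Atp5k (1120 ± 54.1), and these levels were not compared with the other tables, whose library kit or read length differed. Sdhd was thus the highest complex II gene per length in every group. This rank depends on the merged exons of all transcripts, which were 1231 bases for Sdhd and 4126 for Sdha. Sdha had more counts than Sdhd in each of the count tables. Merged exons were also longer for Atp5b (4237 bases) than for Atp5a1 (3135), so length enters their order too.

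Several isoforms known from heart, muscle or testis were scarcely detected. Cox6a2, Cox7b2, Cox8b, Cox8c and a second identifier of Atp5o stayed below the low-count filter in every comparison, so 106 of the 111 genes were tested in the Six2 comparisons and 103 in each Foxd1 comparison. In sorted Foxd1 cells mt-Nd4l, Ndufa11b and Ndufs6b, and in Foxd1 whole kidneys Ndufa11b, Ndufs6b and Cox6c2, were also below it. Ndufa11b, Ndufb4c, Ndufs6b and Cox6c2 match the symbol rule but are annotated as processed pseudogenes. Because reads were counted without strand, Ndufaf2, Atp5o, Ndufb6 and Ndufa13 are uncertain: they share 65.6%, 47.9%, 39.0% and 30.0% of their exon bases with other genes. Ndufs3, Ndufs5, Cox5b, Ndufb4 and Uqcrb have near-identical copies elsewhere in the genome over 75.7%, 46.9%, 45.1%, 40.2% and 39.8% of a transcript. Reads counted in near-identical copies were 1439% of the gene's own for Atp5g2 and 242% for Atp5l, so the levels of both are uncertain too.

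Promoter sequence was available from RefSeq (GRCm38.p6) for 67 members, as 250 bases before and 50 after the start. Letters of 4 motifs known from nuclear respiratory genes were searched on both strands: GCGCATGC (NRF1), CCGGAAG (ETS, the family of GABPA), AAGATGGCG (YY1) and AAGGTCA (estrogen-related receptors). The NRF1 letters stood in 10 members (14.9%), against 2.80% of 27025 promoters, the ETS letters in 15 (22.4% against 9.12%), the YY1 letters in 6 (8.96% against 1.49%) and the receptor letters in 8 (11.9% against 4.66%). At least 1 of the 4 stood in 30 members (44.8%), against 16.8% of all promoters. Shown here are the 250 bases before the start of 3 genes that fell in both sets of whole kidneys and hold the NRF1 letters, Sdhb (chr4:140961021-140961270, plus strand), Atp5k (chr5:108434400-108434649, minus strand) and Atp5l (chr9:44920743-44920992, minus strand), with motif letters in capitals. The start meant here is that of RefSeq. For Sdhb and Atp5k it lies inside the gene as annotated in GENCODE vM21, whose 5' ends are at 140961203 and 108434448. Part of each of these windows, with the Sdhb letters, thus lies within the annotated gene. In Sdhb the NRF1 letters begin 54 bases before the start, in Atp5k 2 overlapping matches begin 50 and 48 bases before it, and in Atp5l the capitals are NRF1, ETS and receptor letters 240, 212 and 13 bases before it. These are matches of letters, not measured binding sites.
Sdhb: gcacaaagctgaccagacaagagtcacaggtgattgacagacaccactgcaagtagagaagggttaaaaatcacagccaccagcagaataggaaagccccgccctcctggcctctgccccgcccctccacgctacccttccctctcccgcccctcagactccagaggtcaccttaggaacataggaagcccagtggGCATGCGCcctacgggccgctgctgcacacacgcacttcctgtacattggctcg
Atp5k: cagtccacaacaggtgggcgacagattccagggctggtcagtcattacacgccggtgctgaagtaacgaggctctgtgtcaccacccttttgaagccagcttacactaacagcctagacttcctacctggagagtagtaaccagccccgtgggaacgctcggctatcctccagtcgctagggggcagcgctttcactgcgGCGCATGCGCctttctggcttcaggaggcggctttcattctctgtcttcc
Atp5l: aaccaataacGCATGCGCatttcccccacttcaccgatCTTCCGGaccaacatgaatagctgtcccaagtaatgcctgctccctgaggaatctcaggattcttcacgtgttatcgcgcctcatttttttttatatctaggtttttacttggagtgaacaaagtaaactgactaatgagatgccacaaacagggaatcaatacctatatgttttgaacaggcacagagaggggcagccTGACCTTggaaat

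The first question was how the nuclear subunits responded to ENL mutation in the nephrogenic lineage at E18.5. In Six2 T1 whole kidneys they were lower almost throughout. Of 85 tested, 69 fell and 0 rose (0 also at an unadjusted p under 0.05, with edgeR's exact test and with DESeq2), with a median of -0.41 in log2, against a median over all genes of -0.01. Over all 23931 genes tested, 9.16% fell and 5.02% rose. The falls covered 33 of 39 genes of complex I, 4 of 4 of complex II, 7 of 8 of complex III, 10 of 17 of complex IV and 15 of 17 of complex V, and 82 of the 85 genes had a log2 fold change below 0. The changes were small: 5 genes passed the study's 1.5-fold threshold.

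In T3 whole kidneys, 64 of 85 nuclear subunits fell and 1 rose, with a median of -0.39, beside 10.2% of all genes falling and 7.27% rising. By complex, 31, 4, 8, 7 and 14 genes fell, and 3 passed 1.5-fold. T1 and T3 were compared with the same 2 WT libraries, so their values are set side by side and their difference was not tested.

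Complex II showed the fall in every one of its genes. Sdhb (ENSMUSG00000009863, chr4:140961203-140979193 in GRCm38), the iron-sulfur subunit, was 97.1 and 95.7 CPM in T1, 95.0 and 94.4 CPM in T3 and 151.6 and 144.9 CPM in WT (T1 -0.63 ± 0.05, adjusted p = 0.00034; T3 -0.65 ± 0.05, adjusted p = 0.00025; ± SE of log2 here and below). The mutant libraries lay close to each other and well below both WT libraries. Sdha, the flavoprotein, was 315 and 313 CPM in T1, 310 and 290 CPM in T3 and 404 and 429 CPM in WT (-0.42 and -0.47). The membrane anchors Sdhc (-0.40 and -0.40) and Sdhd (-0.53 and -0.54) fell likewise, with no overlap of mutant and WT libraries.

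Uqcrfs1 (chr13:30540308-30545362), the Rieske iron-sulfur subunit of complex III, had the lowest log2 fold change in T1. Its level was 91.4 and 92.4 CPM in T1, 95.7 and 115 CPM in T3 and 142 and 144 CPM in WT (T1 -0.64 ± 0.08, adjusted p = 0.0020; T3 -0.44, adjusted p = 0.0099). Cox5a, a nuclear subunit of complex IV, was 26.5 and 27.0 CPM in T1, 29.7 and 40.1 CPM in T3 and 41.8 and 41.2 CPM in WT (T1 -0.64 ± 0.13, adjusted p = 0.014, and T3 -0.25, adjusted p = 0.23). Cox5a passed the test in T1 and not in T3, a difference that was not tested, and the T1 call was lost without T1 replicate 1 (adjusted p = 0.10) or replicate 2 (0.10).

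Cox5b (chr1:36691449-36693681), its partner subunit, was 51.2 and 53.5 CPM in T1 and 78.7 and 82.1 CPM in WT (-0.63 ± 0.09, adjusted p = 0.0029). In T3 it was 81.0 and 97.9 CPM, at or near the WT values (0.15, adjusted p = 0.29). Cox8a showed a like pattern, at 59.6 and 80.8 CPM in T1, 129 and 134 CPM in T3 and 85.4 and 102 CPM in WT. It did not pass the test in T1 (-0.42, adjusted p = 0.090) and was the only nuclear subunit to rise in T3 (0.49 ± 0.14, adjusted p = 0.0495), a call lost without WT replicate 1 (adjusted p = 0.12), T3 replicate 1 (0.14) or T3 replicate 2 (0.18). Whether T1 and T3 differ at these 2 genes was not tested.

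In complex V, Atp5g1 (chr11:96068852-96075670), which encodes the c subunit of the membrane rotor, was 87.1 and 81.9 CPM in T1, 83.5 and 80.8 in T3 and 127 and 123 in WT (T1 -0.58, T3 -0.61 ± 0.06, adjusted p = 0.00043). Atp5g3, the c subunit gene with the highest level, was 265 and 264 CPM in T1 and 356 and 376 CPM in WT (-0.48 ± 0.06, adjusted p = 0.0020). It made up 85.4% of the family per length in WT, with merged exons of 2181 bases against 4912 for Atp5g1. Atp5g2 was 5.79 and 4.94 CPM in T1 and 5.32 and 5.48 CPM in WT (-0.02, adjusted p = 0.95). Reads in near-identical copies of Atp5g2 were 1439% of its own, so its level, share and fold change are uncertain. The alpha chain gene Atp5a1 was 1078 and 1060 CPM in T1, 1040 and 992 CPM in T3 and 1351 and 1484 CPM in WT (T1 -0.42, T3 -0.48). Among these genes the T1 and WT libraries overlapped at Atp5g2 only.

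In complex I, Ndufs1, the largest iron-sulfur subunit, was 121 and 122 CPM in T1, 112 and 113 CPM in T3 and 164 and 177 CPM in WT (T3 -0.60 ± 0.06, adjusted p = 0.00039). Ndufb10, a membrane arm subunit, was 64.2 and 63.9 CPM in T1, 59.9 and 59.3 in T3 and 90.5 and 87.9 in WT (T3 -0.58 ± 0.05, adjusted p = 0.00035). Atp5k, of complex V, was 58.3 and 56.8 CPM in T1, 50.5 and 54.7 in T3 and 83.2 and 72.1 in WT (T3 -0.56 ± 0.08, adjusted p = 0.0033). All mutant libraries lay below both WT libraries at these 3 genes. Of the 8 Nduf assembly factors, 4 fell and 0 rose in T1, beside 9.16% and 5.02% of all genes. In T3, 4 fell and 1 rose, beside 10.2% and 7.27%.

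The isoforms of complex IV did not move as a block. Cox7a2, the widely expressed form, was 88.2 and 91.0 CPM in T1, 92.0 and 95.1 in T3 and 144 and 125 in WT (T1 -0.59, adjusted p = 0.0021; T3 -0.52). Cox7a2l, a related protein that joins complexes III and IV into supercomplexes, was 164 and 157 CPM in T1, 158 and 142 in T3 and 157 and 151 in WT, with no fold change past the test (0.05 and -0.04). Per length, Cox7a2l made up 41.5% of the Cox7a family in WT, 52.5% in T1 and 49.7% in T3. Cox4i2 was 8.01 and 7.99 CPM in T1, 9.31 and 6.05 in T3 and 6.12 and 6.70 in WT and did not pass the test (0.31 and 0.26).

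Leaving out a T1 library cut the T1 count of falls from 69 to 22 (without replicate 1) or 27 (without replicate 2), and leaving out either T3 library cut the T3 count of calls from 65 to 40, while the nuclear median kept between -0.40 and -0.36 in every such fit. The summed level of 15 proximal tubule markers was 562 to 717 CPM in T1 and 578 to 601 CPM in T3, against 3455 to 4159 CPM in WT, with 15 of 15 lower, so tissue composition moved with the subunits and its part was not tested.

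**Figure D1:**
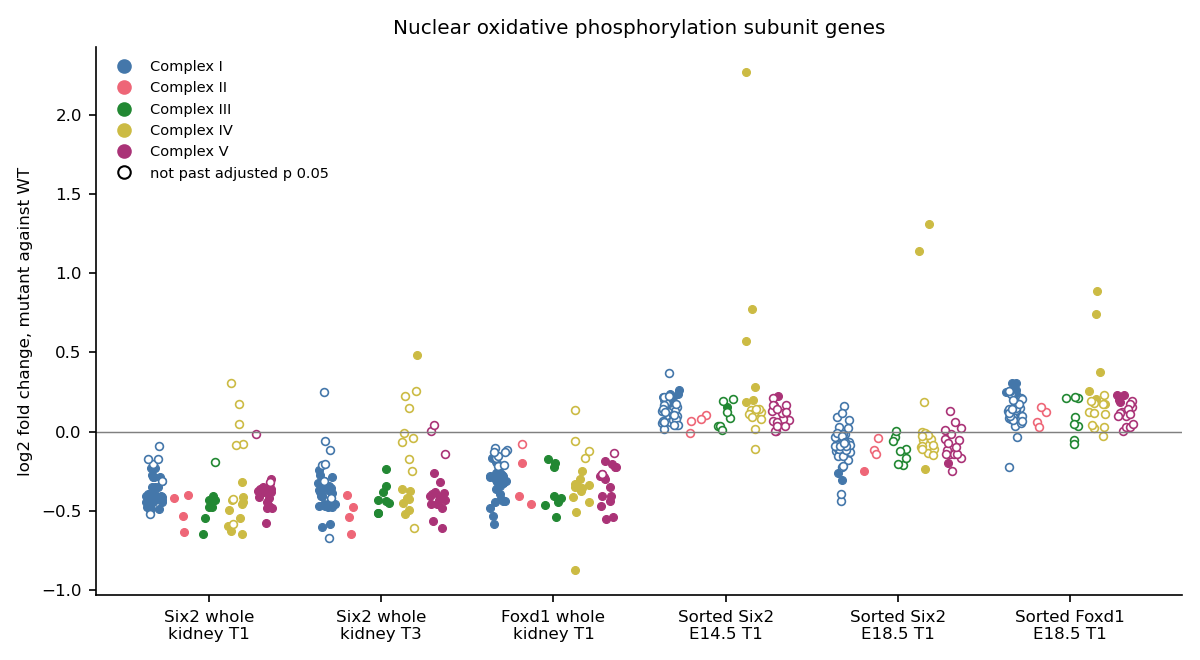
Log2 fold change of each nuclear subunit gene, mutant against WT, in the 6 genotype comparisons (x axis), coloured by complex; filled points had an adjusted p under 0.05 and open points did not. In the 3 whole kidney comparisons most filled points lie below 0 with medians of -0.41, -0.39 and -0.30, whereas in the sorted cells most points are open and lie near 0, with single complex IV genes above the rest.

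In Foxd1 T1 whole kidneys, where the mutation acts in the stroma and its descendants, the nuclear subunits were lower as well. Of 82 tested, 67 fell and 0 rose (0 also at an unadjusted p under 0.05, with the exact test and with DESeq2), with a median of -0.30, against 17.0% of 20145 genes that fell and 16.4% that rose. The falls comprised 29 of 37 genes of complex I, 3 of 4 of complex II, 8 of 8 of complex III, 12 of 16 of complex IV and 15 of 17 of complex V, and 1 gene passed 1.5-fold. The 69 genes that fell in Six2 T1 whole kidneys and the 67 here shared 60, which is 87.0% of the former and 89.6% of the latter, in comparisons with no library in common. Since 81.2% and 81.7% of the tested nuclear subunits fell in the 2 comparisons, nothing is read from this overlap.

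The gene past 1.5-fold was Cox7a1 (chr7:30184144-30186078), the heart and muscle isoform, with 1.46, 1.85 and 1.26 CPM in T1 and 3.19, 2.35 and 2.83 CPM in WT (-0.87 ± 0.19, adjusted p = 0.0038). It was at the low end of the measured range in all libraries. The 12 pericyte and smooth muscle markers summed to 927 to 1056 CPM in T1 and 1571 to 1937 CPM in WT, and their part in the result was not tested. In Six2 whole kidneys Cox7a1 was 1.95 and 1.71 CPM in T1 and 3.08 and 2.36 CPM in WT and did not pass the test (-0.58, adjusted p = 0.094).

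Ndufb4, a complex I accessory subunit, was 12.32, 12.99 and 12.25 CPM in T1 and 19.1, 17.5 and 19.4 in WT (-0.58 ± 0.08, adjusted p = 7.9e-05). Atp5g1 was 142, 140 and 137 CPM in T1 and 200, 211 and 201 CPM in WT (-0.55 ± 0.05, adjusted p = 2.8e-06). The groups did not overlap at either gene. Atp5l, of the ATP synthase membrane part, was 16.0, 14.4 and 14.9 CPM against 21.2, 19.9 and 24.4 (-0.54 ± 0.09, adjusted p = 0.00038), and Uqcrq, of complex III, was 86.7, 72.2 and 76.6 CPM against 108, 119 and 114 (-0.54 ± 0.07, adjusted p = 6.7e-05). Sdhb was 135, 128 and 130 CPM against 168, 193 and 177 (-0.46), and Uqcrfs1 was 153, 150 and 152 CPM against 201, 216 and 207 (-0.46). For these 4 genes too every T1 library was below every WT library.

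Several core chains were among the genes not called here. Sdha was 385 to 429 CPM in T1 and 411 to 459 CPM in WT (-0.07), overlapping ranges with no call, and Atp5a1 (-0.13) and Ndufv1, the NADH-binding subunit (-0.12), did not pass either. Atp5b fell by 0.20 in log2 (adjusted p = 0.026) and Ndufs1 by 0.19 (adjusted p = 0.013). The difference between the Six2 and Foxd1 kidneys at these genes was not tested. Cox7a2l (-0.06), Cox4i2 (0.14) and Ndufa4l2 (-0.12) were again among the 15 genes not called.

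Among the Nduf assembly factors, 3 of 8 fell and 0 rose in Foxd1 whole kidneys, beside 17.0% and 16.4% of all genes. The count of nuclear falls was 57 to 72 when any library was left out. Proximal tubule markers summed to 1906 to 2527 CPM in T1 and 3893 to 4162 CPM in WT (13 of 15 lower), and 10 nephron progenitor markers rose in 9 cases, so cell composition moved here as well and its part was not tested.

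In sorted Six2 cells the lineage was examined without the rest of the kidney, and the broad fall was not seen. At E14.5, 17 of 85 nuclear subunits rose and 0 fell (0 also at an unadjusted p under 0.05, with the exact test and with DESeq2), with a median of 0.13, against 6.38% of 22387 genes that rose and 6.5% that fell. At E18.5, 2 of 85 rose and 5 fell, with a median of -0.09, against 9.58% and 10.7% of 22685 genes. The share that fell at E18.5 was therefore below the background share. At E14.5 the nephron progenitor markers summed to 1308 to 1526 CPM in T1 and 2303 to 2650 CPM in WT, and the podocyte markers to 789 to 950 and 1100.5 to 1327 CPM, with no overlap in either list, and their part in the rises was not tested.

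The largest rises at E14.5 were in complex IV isoforms. Ndufa4l2 (ENSMUSG00000040280, chr10:127514967-127517154), the hypoxia-inducible paralog of Ndufa4, was 2.07, 0.371 and 1.53 CPM in T1 and 0.398, 0.184 and 0.244 CPM in WT (2.27 ± 0.60, adjusted p = 0.041). T1 replicate 2 lay within the WT range, and the call was lost without any WT library or T1 replicate 1 or 3 (adjusted p 0.060 to 0.14, log2 1.79 to 2.63). Cox4i2 (ENSMUSG00000009876, chr2:152754173-152765037), the oxygen-sensitive isoform of Cox4, was 4.404, 4.770 and 4.797 CPM in T1 and 3.50, 2.00 and 2.68 CPM in WT (0.77 ± 0.20, adjusted p = 0.037). Its groups did not overlap, but the call was lost without any library other than WT replicate 1 (adjusted p 0.077 to 0.11).

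Cox6b2, the testis isoform of Cox6b, was 14.1, 14.7 and 13.7 CPM in T1 and 10.02, 9.10 and 9.39 CPM in WT (0.58 ± 0.08, adjusted p = 0.0034), and its share of the Cox6b pair per length was 3.16% in T1 and 2.36% in WT. Cox8a was 278, 282 and 293 CPM in T1 and 229, 225 and 247 CPM in WT (0.28, adjusted p = 0.0055). Ndufb11, an X-linked complex I subunit, was 111, 112 and 114 CPM in T1 and 92.7, 92.8 and 95.4 CPM in WT (0.26, adjusted p = 0.0041). The T1 libraries were above all WT libraries at these 3 genes. A further 12 genes (Ndufa5, Ndufb9, Atp5e, Ndufb8, Ndufc1, Cox4i1, Ndufa7, Ndufb10, Ndufa4, Ndufa3, Atp5h and Uqcrh) rose by 0.16 to 0.24, and the assembly factor Ndufaf3 by 0.32. The nuclear count was 3 to 4 without WT replicate 1 or 2 or T1 replicate 2 or 3, 8 without T1 replicate 1 and 26 without WT replicate 3.

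At E18.5 the same 2 isoforms were the only nuclear subunits that rose. Cox4i2 was 7.07, 9.55 and 6.75 CPM in T1 and 4.18, 3.33 and 3.42 CPM in WT (1.14 ± 0.17, adjusted p = 0.00029), a call kept whichever library was left out. Ndufa4l2 was 1.59, 4.35 and 2.21 CPM in T1 and 1.505, 1.116 and 0.769 CPM in WT (1.31 ± 0.36, adjusted p = 0.020), and it did not pass without T1 replicate 2 (0.78, adjusted p = 0.14), WT replicate 2 (0.067) or WT replicate 3 (0.077), nor in a fit of all 12 sorted libraries (0.12). Per length, Cox4i2 made up 2.84% ± 0.38 (SD, n = 3) of Cox4 in WT and 6.41% ± 1.32 in T1, and Cox4i1 remained the main form in every group. The shift was thus from a small share to a somewhat larger one.

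Levels of stromal markers moved with these isoforms. The 12 stromal markers summed to 734 to 869 CPM in WT and 1225 to 2212 CPM in T1 at E14.5 (9 rose and 1 fell), and to 593 to 806 CPM in WT and 1031 to 1179 CPM in T1 at E18.5 (8 rose and 3 fell). The 12 pericyte and smooth muscle markers summed to 262 to 319 CPM in WT and 249.4 to 271.9 CPM in T1 at E14.5, and to 271 to 313 and 387 to 413 CPM at E18.5. T1 replicate 2 at E14.5, the lowest T1 library for Ndufa4l2, also had the lowest summed stromal level of the T1 libraries. Cox4i2 did not follow this order, since its lowest T1 library at E14.5 was replicate 1. Red cell markers summed to 108 to 215 CPM in WT and 1531 to 2221 CPM in T1 at E18.5. In sorted Foxd1 WT cells, Cox4i2 made up 9.72% of Cox4 and Ndufa4l2 made up 29.0% of its pair. These shares were not compared with those of the sorted Six2 groups, whose read length and depth differed. The part of stromal cells or RNA in the rise of either isoform was not tested.

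**Figure D2:**
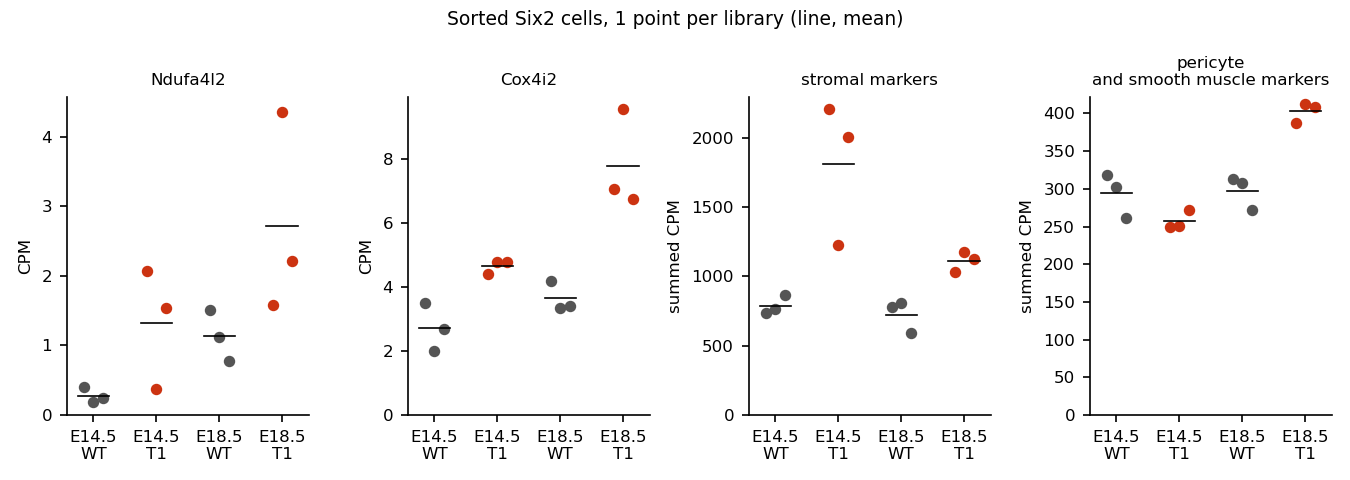
CPM of Ndufa4l2 and Cox4i2 and summed CPM of 12 stromal and 12 pericyte and smooth muscle markers in sorted Six2 cells; each point is 1 library and each line the mean of 3. Cox4i2 in T1 lies above WT at both stages, stromal markers lie above WT at both stages, and pericyte markers lie above WT at E18.5 only (387 to 413 against 271 to 313 CPM).

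The 5 falls at E18.5 were small and came from complexes I, II, IV and V. Ndufv3, of the NADH-binding module, was 30.3, 29.7 and 28.7 CPM in T1 and 38.4, 37.7 and 36.6 CPM in WT (-0.30, adjusted p = 0.011). Ndufs8, an iron-sulfur subunit, was 40.4, 36.3 and 37.8 CPM against 48.6, 47.1 and 45.7 (-0.26, adjusted p = 0.021), and Sdha was 246, 236 and 248 CPM against 290, 299 and 303 (-0.25, adjusted p = 0.0078). Cox5a (-0.24, adjusted p = 0.039) and Atp5a1 (997, 940 and 1024 CPM against 1170, 1213 and 1106; -0.20, adjusted p = 0.038) also fell. All 5 were among the 69 that fell in the whole kidney, of which they are 7.25%. Since 81.2% of the tested nuclear subunits fell in the whole kidney, nothing is read from this overlap. None of the 5 was called when libraries were scaled by their total alone (2 rose and 0 fell), which moved the median of all genes from 0.02 to 0.11. The 7 calls became 3 or 4 without T1 replicate 2 or 3 or WT replicate 2. Cox5a lost its call whichever library was left out (adjusted p 0.063 to 0.16). Ndufv3 lost its call without T1 replicate 3 (0.054), Ndufs8 without WT replicate 2 or T1 replicate 2 or 3 (0.061 to 0.098) and Atp5a1 without WT replicate 2 or any T1 library (0.074 to 0.19). Proximal tubule markers (1630 to 2212 CPM in WT, 479 to 544 CPM in T1) and podocyte markers (4390 to 4913 and 818 to 907 CPM) were lower in the same T1 libraries, as were the nephron progenitor markers (1649 to 2016 and 1027 to 1142 CPM) and the dissociation stress genes (4120 to 5285 and 3112 to 3625 CPM), and their part was not tested.

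The change of the T1 effect between the stages was tested as an interaction. Of 85 nuclear subunits, 14 had a lower T1 effect at E18.5 than at E14.5 and 0 a higher one, against 4.22% of 25222 genes lower and 3.94% higher. The largest differences were in Ndufv3 (-0.42 ± 0.08, adjusted p = 0.0079), Ndufb11 (-0.41, adjusted p = 0.0068), Ndufa6 (-0.37), Ndufb10 (-0.32) and Atp5k (-0.30), and the other 9 lay between -0.29 and -0.22. Ndufaf3 (-0.52) and Ndufaf5 (-0.42) differed likewise among the assembly factors. The count was 33 without E18.5 WT replicate 3, and 3 or 4 without E14.5 WT replicate 1 or 2 or T1 replicate 2 or 3, and it was 5 with the replicate number as a block.

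In sorted Foxd1 cells the stromal lineage was examined apart from the rest of the kidney. Of 83 nuclear subunits tested, 16 rose and 0 fell (0 also at an unadjusted p under 0.05, with the exact test and with DESeq2), with a median of 0.14, against 5.94% of 12717 genes that rose and 4.78% that fell. Cox6c (ENSMUSG00000014313, chr15:35925886-35938246), a complex IV subunit, was 1574, 1640, 1635 and 1597 CPM in T1 and 1033, 1004, 900 and 972 CPM in WT (0.74 ± 0.06, adjusted p = 1.5e-07). The groups were well apart, and the log2 fold change stayed between 0.71 and 0.76 when any library was left out. Cox6c2 (ENSMUSG00000066491, chr12:56373593-56373823), a processed pseudogene by annotation, was 49.9, 40.4, 43.2 and 37.2 CPM in T1 and 28.5, 25.6, 17.2 and 20.5 CPM in WT (0.88 ± 0.14, adjusted p = 0.00032).

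The rise of Cox6c was not seen in the other tables. In sorted Six2 cells at E18.5 it was 133, 130 and 138 CPM in T1 and 137, 140 and 136 CPM in WT, and at E14.5 its difference did not pass the test (0.14, adjusted p = 0.097). In whole kidneys it fell, by 0.44 (T1) and 0.36 (T3) with the Six2 driver and by 0.34 with the Foxd1 driver. The library kit differed between sorted cells and whole kidneys and the read length between drivers, so levels were not compared across tables.

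Among the other rises, Ndufa3, of complex I, was 1047, 1010, 1018 and 1110 CPM in T1 and 913, 858, 784 and 874 CPM in WT (0.31, adjusted p = 0.0026). Ndufa11, also of complex I, was 337, 397, 416 and 418 CPM in T1 and 310, 314, 315 and 345 CPM in WT (0.31, adjusted p = 0.012), with 1 WT library above the lowest T1 library. Cox4i2 was 34.9, 46.0, 47.8 and 50.4 CPM in T1 and 36.2, 34.0, 36.9 and 33.2 CPM in WT (0.38 ± 0.12, adjusted p = 0.042), and this call was lost with DESeq2 (adjusted p = 0.11) and without any library other than WT replicate 3 or T1 replicate 1 (adjusted p 0.059 to 0.14). A further 11 genes rose by 0.17 to 0.26: Ndufv1, Ndufa4, Ndufv3, Ndufb5, Atp5k, Atp5l, Ndufc1, Cox7a2, Atp5h, Atp5e and Cox6b1.

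The Foxd1 and Six2 rises overlapped in part. Of 85 nuclear subunits tested, 17 rose in sorted Six2 cells at E14.5, and of 83 tested here, 16 rose. The lists shared 6 genes (Atp5e, Atp5h, Cox4i2, Ndufa3, Ndufa4 and Ndufc1), which is 35.3% and 37.5% of the lists. The overlap was not tested against these base shares, so nothing is read from it. In the Foxd1 cells the pericyte and smooth muscle markers were lower in T1 (1694 to 1925 CPM) than in WT (2172 to 2725 CPM), while the stromal markers overlapped (7796 to 8903 and 7504 to 10270 CPM). The 12 dissociation stress genes summed to 6607 to 7992 CPM in T1 and 9576 to 10623 CPM in WT, with 7 falling, and the part of either list in the rises was not tested. The number of rises was 22 without T1 replicate 1 and as low as 4 without T1 replicate 3 (7 to 10 without T1 replicate 2 or 4 or WT replicate 1 or 2).

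The T1 effects in the 2 sorted lineages at E18.5 were compared directly. Of 83 nuclear subunits, 18 had a higher T1 effect in Foxd1 than in Six2 cells and 2 a lower one, against 8.25% and 7.63% of 14869 genes. Cox6c2 (0.92 ± 0.28, adjusted p = 0.030), Cox6c (0.73 ± 0.08, adjusted p = 1.7e-06), Ndufv3 (0.53 ± 0.09, adjusted p = 0.00014), Ndufs8 (0.45, adjusted p = 0.0030) and Atp5k (0.35, adjusted p = 0.0057) led, and the other 13 lay between 0.26 and 0.35. Cox6c2 lost its call without Six2 WT replicate 2 or 3, Six2 T1 replicate 2 or 3, Foxd1 WT replicate 3 or 4 or Foxd1 T1 replicate 1 or 3 (adjusted p 0.050 to 0.11). The 2 lower genes were Ndufa4l2 (-1.27 ± 0.32, adjusted p = 0.0090) and Cox4i2 (-0.78 ± 0.21, adjusted p = 0.011). Lineage and read length, which differed between the drivers, cannot be told apart here, and the count was 8 to 13 without any Six2 T1 library or Foxd1 replicate 2 or 3 of either genotype.

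The changes of the 13 mitochondrial genes varied between the comparisons. In Foxd1 T1 whole kidneys 13 of 13 fell, 10 of them past 1.5-fold, with a median of -1.28, against a nuclear median of -0.30. The share of all genes that fell in that comparison was 17.0%. mt-Co1, the catalytic subunit of complex IV, was 3409, 4742 and 3528 CPM in T1 and 9672, 9424 and 10271 CPM in WT (-1.34 ± 0.10, adjusted p = 6.5e-07). mt-Nd4, of complex I, was 867, 1246 and 849 CPM in T1 and 2745, 2404 and 2954 CPM in WT (-1.46 ± 0.12, adjusted p = 1.6e-06), and mt-Cytb, of complex III, was 1486, 1973 and 1454 CPM against 4009, 3762 and 4290 (-1.30). T1 libraries lay well below WT at all 3 genes.

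The other mitochondrial genes of complex I fell in log2 by 1.44 (mt-Nd6), 1.37 (mt-Nd4l), 1.34 (mt-Nd2), 1.24 (mt-Nd5), 1.16 (mt-Nd1) and 0.44 (mt-Nd3). mt-Co2 and mt-Co3, of complex IV, fell by 1.28 and 0.55, and mt-Atp6 and mt-Atp8, of complex V, fell by 0.75 and 0.48. The falls were therefore unequal, with mt-Nd3, mt-Atp8, mt-Co3 and mt-Atp6 the smallest. mt-Atp8 was low, at means of 2.94 CPM in T1 and 4.10 CPM in WT. T1 and WT libraries overlapped at mt-Atp8 and at mt-Nd3. The quartiles of the log2 difference from the WT mean were -1.43 and -0.37 in T1 replicate 1. They were -1.09 and -0.89 in replicate 2 and -1.59 and -1.06 in replicate 3. How far the unequal falls rest on replicate 1 was not tested. The call of mt-Atp8 (adjusted p = 0.047) was lost without any library other than T1 replicate 1 (adjusted p 0.050 to 0.16).

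In Six2 whole kidneys 0 of 13 mitochondrial genes passed the test in T1 or T3 (0 also at an unadjusted p under 0.05, with the exact test and with DESeq2). mt-Co1 was 9091 and 10713 CPM in T1, 12809 and 11190 CPM in T3, and 16392 and 6271 CPM in WT, so the mutant values lay between the 2 controls. The outcome rested on which WT library was used: without WT replicate 1, 8 genes rose in T1 and 11 in T3, and without WT replicate 2, 13 fell in T1 and 12 in T3. WT replicate 2 also had a higher summed level of 14 skeletal muscle markers (82.4 CPM, against 17.7 in replicate 1), whose part was not tested.

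In sorted Six2 cells at E18.5, 11 of 13 fell, 3 of them past 1.5-fold, beside 10.7% of all genes that fell. mt-Co1 was 10893, 10519 and 10934 CPM in T1 and 12231, 14686 and 16894 CPM in WT (-0.40 ± 0.09, adjusted p = 0.0076). mt-Nd4 was 3554, 3468 and 3500 CPM in T1 and 3712, 5388 and 7221 CPM in WT (-0.59). The T1 libraries were close together, while the WT libraries spanned a wide range with replicate 1 near T1. The lowest log2 fold changes were in mt-Atp8 (-0.86) and mt-Atp6 (-0.64), mt-Nd4l, mt-Nd6, mt-Co2, mt-Co3, mt-Nd5, mt-Cytb and mt-Nd3 lay between -0.54 and -0.33, and mt-Nd2 (-0.43, adjusted p = 0.072) and mt-Nd1 (-0.40, adjusted p = 0.055) did not pass. The count was 13 without WT replicate 1, 2 without WT replicate 2 or 3 or T1 replicate 3, 5 without T1 replicate 1 and 0 without T1 replicate 2.

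In sorted Six2 cells at E14.5, 0 of 13 passed (2 at an unadjusted p under 0.05, 1 with DESeq2 and 1 with the exact test), with mt-Nd3 nearest (0.46, adjusted p = 0.061), and 4 rose without T1 replicate 1. In sorted Foxd1 cells, 0 of 12 passed (2 at an unadjusted p under 0.05, 0 with DESeq2 or the exact test), with mt-Nd4 nearest (0.23, adjusted p = 0.059), and 5 rose without WT replicate 3. Among these 12, mt-Atp6, mt-Co2, mt-Co3 and mt-Atp8 had few counts, so a change in them could hardly be seen. The T1 effect on mt-Nd3 (-0.78) and mt-Co3 (-0.69) was lower at E18.5 than at E14.5, and that on mt-Nd3, mt-Co1, mt-Nd5, mt-Nd6, mt-Nd2 and mt-Nd4 was higher in Foxd1 than in Six2 cells by 0.49 to 0.81. Over all genes, 4.22% had a lower T1 effect at E18.5 and 8.25% a higher one in Foxd1 cells. The mitochondrial interaction counts ranged from 0 to 13 and from 1 to 10 as libraries were left out, with 13 and 10 both found without E18.5 Six2 WT replicate 1.

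**Figure D3:**
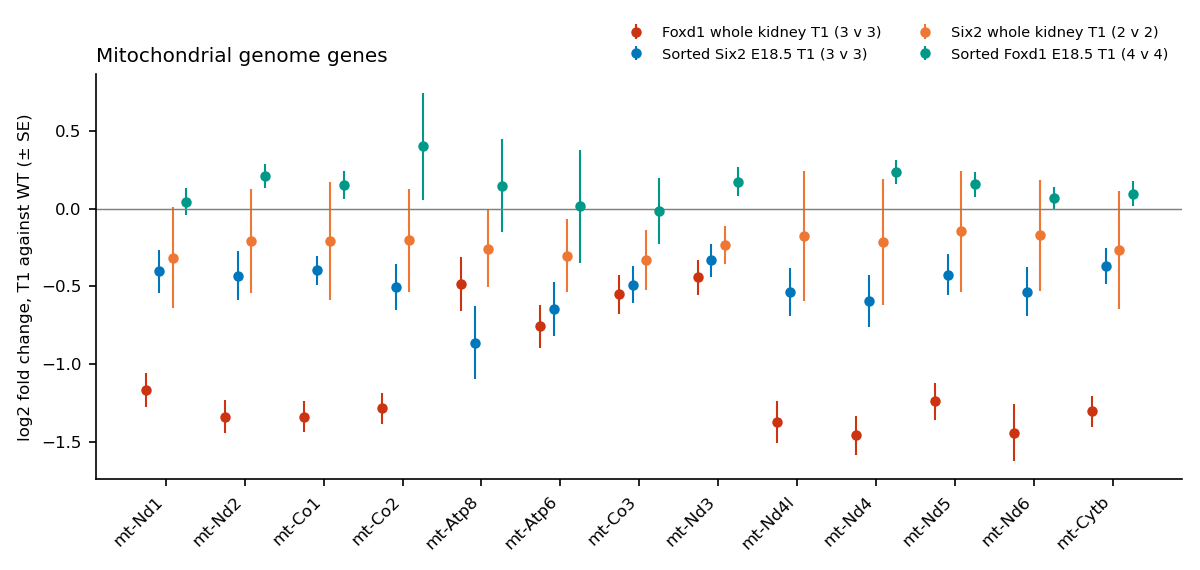
Log2 fold change (± SE), T1 against WT, of the 13 mitochondrial genes in their order along the genome, in 4 comparisons. In Foxd1 whole kidneys 9 genes lie below -1, with mt-Atp8, mt-Atp6, mt-Co3 and mt-Nd3 nearer to 0; Six2 whole kidneys have wide errors that reach or nearly reach 0; sorted Foxd1 cells lie near or above 0, with no value for mt-Nd4l.

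Part of the mitochondrial genome has a near-identical copy in the nuclear genome, at chr1:24611535-24616197, annotated as 7 genes. Over the shared bases mt-Atp6, mt-Co2, mt-Co3, mt-Nd4 and mt-Nd4l match it at 100% and mt-Co1 and mt-Nd3 at 99.8% and 99.7%, so reads from either place cannot be told apart there. The 7 mitochondrial genes had 1.29 to 1.30 counts per count in the copies in sorted Six2 cells at E14.5, 12.2 to 14.2 at E18.5, 11.7 to 12.2 in Six2 whole kidneys and 1.61 to 1.83 in Foxd1 whole kidneys. The division of reads between the genes and their copies thus differed between these tables and, in sorted Six2 cells, between stages. In sorted Foxd1 cells the pooled ratio was 1227 to 1610, but nearly all of those counts were from mt-Co1, mt-Nd3 and mt-Nd4. The other genes and their copies both had few counts there: mt-Atp6 had 47 in T1 and 49 in WT, its copy 30 and 37, and mt-Co2 had 89 and 71, its copy 5 and 10. In CPM, mt-Atp6 had only 2 to 7 and mt-Co3 14 to 33 in these cells, beside 7270 to 10112 of mt-Co1. mt-Atp8 had 338 counts in all sorted Foxd1 libraries together. With the reads of the copies added, 13 of 13 still fell in Foxd1 whole kidneys and 10 of 13 in sorted Six2 cells at E18.5, and 0 passed in the other 4 genotype comparisons.

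The share of all counts in the 13 genes was also taken per library. In Foxd1 whole kidneys it was 3.11, 2.85 and 3.34% in WT (3.10 ± 0.24, SD, n = 3) and 1.37, 1.53 and 1.16% in T1 (1.35 ± 0.19). The groups did not overlap, and the exact permutation p of 0.10 is the smallest that 3 against 3 allows (two-sided). In Six2 whole kidneys it was 6.14 and 2.63% in WT, 3.71 and 4.11% in T1 and 4.98 and 4.45% in T3, with both mutants inside the WT range (exact permutation p = 1.0, smallest possible 0.333). In sorted Six2 cells at E18.5 it was 4.21, 5.48 and 6.76% in WT and 4.32, 4.23 and 4.18% in T1 (exact permutation p = 0.30), and at E14.5 it was 0.602, 0.517 and 0.532% in WT and 0.560, 0.618 and 0.699% in T1 (exact permutation p = 0.20). In sorted Foxd1 cells it was 3.30, 3.19, 4.15 and 3.62% in WT and 4.12, 3.64, 4.15 and 3.73% in T1 (exact permutation p = 0.20, smallest possible 0.0286). Almost no reads of mt-Atp6, mt-Co2, mt-Co3, mt-Nd4l and mt-Atp8 entered the share in sorted Foxd1 cells.

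**Figure D4:**
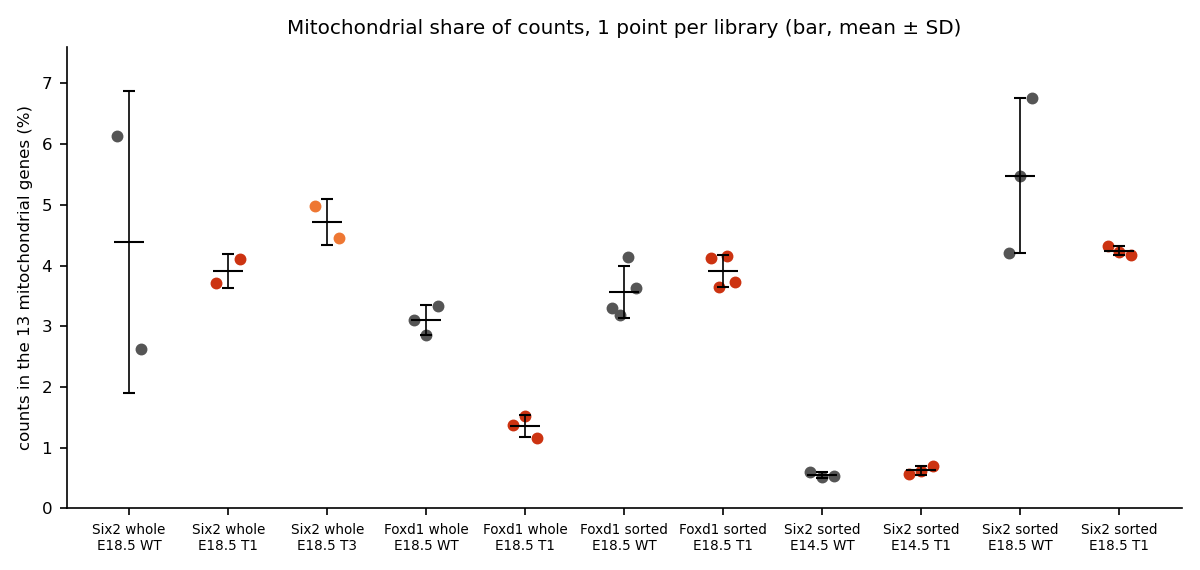
Percent of all counts in the 13 mitochondrial protein genes; each point is 1 library, bars are the mean and whiskers the SD. The Foxd1 whole kidney T1 libraries (1.16 to 1.53%) lie below WT (2.85 to 3.34%), the 2 Six2 whole kidney WT libraries (6.14 and 2.63%) lie far apart, and sorted Six2 cells hold 0.517 to 0.699% at E14.5 and 4.18 to 6.76% at E18.5.

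Between E14.5 and E18.5 the nuclear and mitochondrial genes of the same complexes moved in opposite directions in sorted Six2 cells. In WT, 78 of 85 nuclear subunits fell and 4 rose, with a median of -1.23, against 36.6% of 25222 genes that fell and 36.4% that rose. In T1, 79 fell and 3 rose, with a median of -1.38, against 35.8% and 36.9%. At the study's development threshold (adjusted p under 0.01 and over 2-fold), 51 fell and 3 rose in WT and 60 fell and 2 rose in T1. By complex, 38 of 39, 4 of 4, 6 of 8, 13 of 17 and 17 of 17 genes fell in WT, and all 8 Nduf assembly factors fell in both genotypes. Scaling by library size alone moved the median of all genes in WT from 0.02 to -0.12 and the nuclear median to -1.37.

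Genes of complex I were among those that fell furthest. Ndufs5 (chr4:123712710-123718202) went from 63.6 ± 2.6 CPM (SD, n = 3) at E14.5 to 9.71 ± 0.85 CPM at E18.5 in WT (-2.73), and Ndufs7, an iron-sulfur subunit, from 133 ± 8.0 to 23.3 ± 2.6 CPM (-2.53). Ndufb4 went from 32.8 to 6.14 CPM (-2.43). The pseudogenes Ndufb4c (24.6 to 1.64 CPM, -3.91) and Cox6c2 (4.61 to 0.433 CPM, -3.42) had larger falls still. In complex II, Sdhb went from 277 ± 12.5 to 60.9 ± 5.7 CPM (-2.21), whereas Sdha fell by 0.64 in log2, so the 2 catalytic subunits changed unequally. Cox4i1 fell by 0.44 and Atp5a1 by 0.24. In T1 the same genes led, with Ndufb4c at -4.56, Cox6c2 at -3.58, Ndufb4 at -2.86, Ndufs7 at -2.79, Ndufs5 at -2.68 and Sdhb at -2.30.

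Few nuclear subunits rose with stage. Cox7a2l (chr17:83501918-83517330) went from 72.0 ± 1.0 to 168 ± 1.7 CPM in WT (1.20, adjusted p = 1.1e-11), and its share of the Cox7a family per length from 20.9% to 51.5%. Ndufa4l2 (2.02, adjusted p = 0.0054), Cox7a1 (1.71, adjusted p = 0.0012) and Uqcrh (0.21) also rose in WT, and Cox7a1 (1.82), Cox7a2l (1.01) and Cox4i2 (0.78, adjusted p = 0.0026) rose in T1.

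All 13 mitochondrial genes rose, by 2.46 (mt-Nd1) to 5.78 (mt-Nd4l) in log2 in WT and by 1.95 (mt-Nd1) to 5.17 (mt-Nd4l) in T1, with medians of 4.11 and 3.49. mt-Co1 went from 710 to 14603 CPM in WT (4.35). In WT mt-Cytb, mt-Co3 and mt-Atp6 rose by 2.57, 2.76 and 2.97, mt-Atp8 and mt-Co2 by 3.65 and 3.95, and mt-Nd5, mt-Nd2, mt-Nd6, mt-Nd4 and mt-Nd3 by 4.11 to 4.36. The counts per count in the copies also differed between the stages (1.29 to 1.30 at E14.5 and 12.2 to 14.2 at E18.5), and the part of this in the rise was not tested. With the reads of the chromosome 1 copies added the medians were 3.65 and 2.83. Their share of all counts was 9.96-fold higher at E18.5 in WT and 6.78-fold higher in T1 (exact permutation p = 0.10 in each, the smallest possible), or 7.45-fold and 5.08-fold with the copies. Cells were dissociated with trypsin at E14.5 and with collagenase at E18.5, so stage and dissociation cannot be told apart. In WT the dissociation stress genes summed to 2172 to 3681 CPM at E14.5 and 4120 to 5285 CPM at E18.5.

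**Figure D5:**
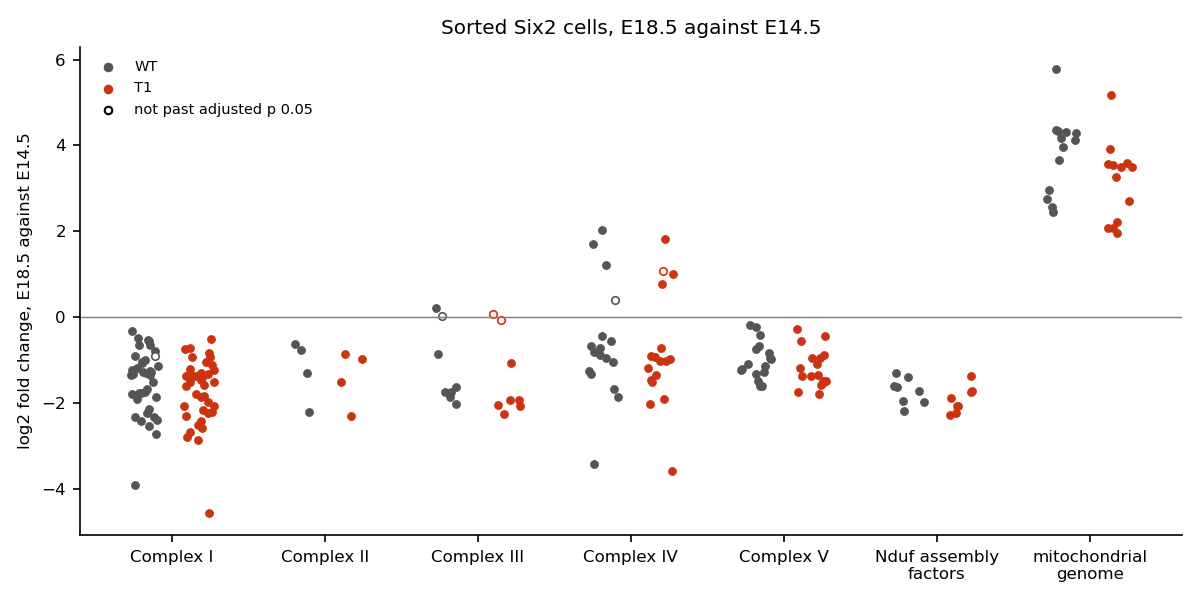
Log2 fold change, E18.5 against E14.5, of each gene in sorted Six2 WT (grey) and T1 (red) cells by complex; open points did not pass an adjusted p of 0.05. Nuclear subunits of all 5 complexes lie mostly below 0 (medians -1.23 and -1.38), all assembly factors lie below 0, and the 13 mitochondrial genes lie between 1.95 and 5.78.

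Genes that work beside the subunits were counted from lists. Of all genes, 36.6% fell and 36.4% rose in development in WT. In development in WT, 80 of 82 mitochondrial ribosomal protein genes fell (median -1.59), 19 of 21 genes of mitochondrial DNA upkeep and transcription fell and 2 rose, and 39 of 41 other assembly factors fell, whereas 59 of 80 cytosolic ribosomal protein genes rose and 14 fell (median 0.90). Of 15 regulators of mitochondrial biogenesis, 8 rose, among them Esrrb (6.01), Esrrg (3.36), Ppargc1a (3.35) and Ppara (2.17), and Nrf1 (-1.31), Ppargc1b (-1.12) and Gabpb1 (-0.74) were among the 4 that fell. Of 15 proximal tubule markers 15 rose, and of 14 proliferation genes 13 fell.

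The citric acid cycle, which feeds electrons to the chain, fell with the subunits in whole kidneys. With pyruvate dehydrogenase and pyruvate carboxylase, 19 of 19 genes fell in Six2 T1 (median -0.41) and 19 of 19 in T3 (-0.41), led by Pcx, the carboxylase (-2.15 and -2.37), and 17 of 19 in Foxd1 whole kidneys (-0.26). In sorted Six2 cells 8 of 19 fell at E18.5 (Pcx -1.59) and 1 at E14.5 (Pcx -0.50). Of all genes, 10.7% fell at E18.5 and 6.5% at E14.5 in these sorted cells. Fatty acid oxidation genes fell in 10, 12 and 5 of 17 cases in the 3 whole kidney comparisons, beside 9.16%, 10.2% and 17.0% of all genes. Of the mitochondrial ribosomal protein genes, 21 and 22 of 82 fell in Six2 T1 and T3, beside 9.16% and 10.2% of all genes, and 17 of 80 (21.3%) in Foxd1 whole kidneys, close to the 17.0% of all genes there. Of the cytosolic ribosomal protein genes 0, 0 and 2 fell in these comparisons.

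Electron carriers and coenzyme Q genes fell in 12, 11 and 9 of 19 cases in the same comparisons, beside 9.16%, 10.2% and 17.0% of all genes. Cycs, cytochrome c, was at -0.60 in T3 and -0.51 in Foxd1 whole kidneys. Among other assembly factors, 7, 10 and 14 of 41 fell, beside the same shares of all genes, with Ecsit at -0.84 and the copper chaperone Cox17 at -0.75 in Foxd1 whole kidneys. Of the biogenesis regulators, Esrrb (-2.56), Ppara (-0.66) and Sirt3 (-0.42) fell and Gabpb2 (0.22) rose in Six2 T1, and Esrrb (-2.71), Ppara (-0.92) and Sirt3 (-0.48) fell in T3. In Foxd1 whole kidneys Esrrb (-3.17), Sirt3 (-0.52), Ppargc1a (-0.44), Esrra (-0.40), Ppara (-0.38) and Esrrg (-0.22) fell and Myc (0.38), Pprc1 (0.33), Nrf1 (0.20) and Gabpa (0.17) rose. In the sorted cells few moved: Ppargc1a rose (0.96) and Myc fell (-0.36) in Six2 cells at E14.5, 3 fell at E18.5 including Esrrb (-2.01) and Ppara (-0.71), and Ppargc1b rose (0.78) and Gabpb1 fell (-0.48) in Foxd1 cells. Of 18 hypoxia-responsive genes, 2 rose and 0 fell in sorted Six2 cells at E14.5, beside 6.38% and 6.5% of all genes. At E18.5, 1 rose (Car9, 1.31) and 8 fell (Adm -1.31, Vegfa -0.70), beside 9.58% and 10.7% of all genes. Podocyte markers were lower in the same E18.5 T1 libraries. Neither their part in these falls nor the part of hypoxia in the rises of Cox4i2 and Ndufa4l2 was tested.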

How the data were processed

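Gene counts from 32 libraries of whole kidneys and sorted kidney cells were used. Per the labels and the study's methods, the authors made libraries from polyA RNA (SMART-seq v4 for sorted cells, KAPA stranded for whole kidneys), aligned reads to mm10 with HISAT2, counted them per gene with HTSeq without strand and without a minimum alignment quality, and tested them with edgeR. The deposited values are raw read counts in 4 tables, which were treated separately except in the lineage interaction.

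Here, genes were named from GENCODE vM21. Low-count genes were removed in each set of libraries with filterByExpr, at a minimum count of 10 and a minimum total of 15, and the rest were scaled by TMM and tested with edgeR 4.0.16 (glmQLFit and glmQLFTest, in R 4.3.3) with Benjamini-Hochberg adjustment over all genes kept. The Six2 whole kidney fit held all 6 libraries. The 2 genotypes of each stage were fitted alone, and development and the stage interaction in 1 fit of 12 libraries. Standard errors of log2 fold changes are the log2 fold change divided by the square root of F. RPKM is CPM per kilobase of merged exons. Shares of counts were compared by two-sided exact permutation tests. The quasi-likelihood test was also run on simulated counts. Total counts per library, 2557443 to 157266455, set the precision, and the limits given for 3 counts cover counting error only. Of 33 pairs of libraries of the same group, none agreed within sampling noise.

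The members and the gene lists were chosen with earlier results of these data known, so their direction is not independent evidence. Genes named for the largest called changes were picked by size, so libraries that do not overlap at them are no further evidence. The share of all genes whose groups did not overlap is not given here. Named with values are all 13 mitochondrial genes, the 5 nuclear members with the largest log2 fold change in each direction among those called in a comparison, the isoform families, the Sdh genes and the highest member per length of each complex; other genes named beside them, such as Cox6c outside the sorted Foxd1 cells, were named after their values were seen. List examples are taken from the 3 largest called changes, with all called regulators; some are not reported here. Alternatives were edgeR's exact test, DESeq2 1.42.0, other scalings and filters, a replicate block, the study's folds, other sets of libraries and leaving out each library. Adding the reads of the chromosome 1 copies was chosen after seeing the data. Replicate numbers did not pair the libraries.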

Additional observations from a re-analysis of the deposited data

Results flagged for a closer look

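In groups of 4 to 10 libraries, only the sorted Foxd1 groups were large enough for a check of single libraries that stand far from the rest of their group, and 45 genes were checked in both groups. Chance alone marks about 1 in 20 groups, and 6 values stood apart. Ndufa11 was 345 CPM in WT replicate 4, above the other WT libraries. Uqcrfs1 was 139 CPM in WT replicate 2 and 102 CPM in T1 replicate 1, and Ndufs5 was 103 CPM in the same T1 library. In T1 replicate 2, mt-Nd3 was 3824 CPM and mt-Nd6 was 539 CPM.

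The T1 effect in sorted Six2 cells differed between the stages, by an interaction test, at 14 nuclear and 2 mitochondrial genes. Over all genes, 4.22% had a lower T1 effect at E18.5 and 3.94% a higher one. The differences, E18.5 minus E14.5, were -0.42 for Ndufv3, -0.41 for Ndufb11, -0.37 for Ndufa6, -0.32 for Ndufb10 and -0.30 for Atp5k. The T1 effect at E18.5 differed between the sorted lineages at 20 nuclear and 6 mitochondrial genes. Over all genes, 8.25% had a higher T1 effect in Foxd1 cells and 7.63% a lower one. The differences, Foxd1 minus Six2 cells, were 0.92 for Cox6c2, 0.73 for Cox6c, 0.53 for Ndufv3, 0.45 for Ndufs8, 0.35 for Atp5k, -1.27 for Ndufa4l2 and -0.78 for Cox4i2.

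Reads outside the members were also found. Ndufb1-ps, which the symbol rule left out, reached 598 CPM, and the 7 chromosome 1 copies of mitochondrial sequence reached 1.11% of the counts of a library.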

How the results depend on the processing

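Each count of called members and each median was recomputed under the alternatives, 378 times in all, and stayed within 1.5 times the count or within the spread of the libraries in 283 of them. Counts are of both directions together, and where no value shows a cause, the cause was not tested. With the study's 1.5-fold threshold added, which removes smaller changes by construction, the nuclear calls were 5 (Six2 whole T1), 3 (T3), 2 (sorted Six2 E14.5), 2 (E18.5), 2 (sorted Foxd1), 1 (Foxd1 whole), 0 (stage interaction) and 4 (lineage interaction), the mitochondrial calls 3 in sorted Six2 cells at E18.5 and 2 in the lineage interaction, and development in WT at an adjusted p of 0.01 and 2-fold had 54. Without the low-count filter, mitochondrial calls were 6 (Six2 whole T1), 1 (E14.5), 2 (sorted Foxd1), 13 (stage) and 11 (lineage), and nuclear calls in sorted Foxd1 cells 9. With only genes over 1 CPM, or with the exact test, 1 mitochondrial gene was called at E14.5. DESeq2 called 28 nuclear and 1 mitochondrial gene at E14.5, 11 and 4 at E18.5, and 35 and 6 in the stage interaction. A fit of all 12 sorted Six2 libraries called 9 nuclear genes at E14.5 and 13 at E18.5.

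Scaling by library size alone gave 1 mitochondrial call at E14.5, 2 nuclear and 7 mitochondrial calls at E18.5, 1 mitochondrial call in sorted Foxd1 cells, 3 nuclear calls in the stage interaction and 7 in the lineage interaction, and turned the nuclear median at E18.5 in sorted Six2 cells from -0.09 to 0.0084. Leaving mitochondrial genes out of the scaling gave 25 nuclear calls in the stage interaction. The replicate number used as a block gave 26 nuclear and 2 mitochondrial calls in sorted Foxd1 cells and 5 nuclear calls in the stage interaction. The numbers share no source in the labels, and same-numbered libraries deviated together with correlations of -0.079 to 0.14 over 19 pairs, so the block changed calls without evidence of pairing.

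When each library was left out in turn, the nuclear calls ranged from 22 to 68 in Six2 whole T1, 40 to 65 in T3, 3 to 26 in sorted Six2 cells at E14.5, 3 to 8 at E18.5, 4 to 22 in sorted Foxd1 cells, 57 to 72 in Foxd1 whole kidneys, 81 to 83 and 81 to 84 in development in WT and T1, 3 to 33 in the stage interaction and 8 to 21 in the lineage interaction. The mitochondrial calls ranged from 0 to 13, 0 to 12, 0 to 4, 0 to 13, 0 to 5 and 12 to 13 in the 6 genotype comparisons in that order, 0 to 13 in the stage interaction and 1 to 10 in the lineage interaction, and were 13 in development. A fit that left 1 library in a group assumed that it varied like the other groups. With 3 against 3 libraries an exact test of the mitochondrial share cannot go below 0.10.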
